A study of Mus musculus with 12 samples.

Results

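The genes described here are 37 genes of sugar breakdown and of the response to low oxygen, taken by symbol from the 55202 genes of the count table. They fall into 22 glycolytic enzymes, their regulators and the transporters of glucose and lactate, and 15 other genes known to be induced in hypoxia. All 37 were present in the count table and in the authors' table of mean normalized counts. RNA was sequenced from cells sorted as tumor-associated macrophages (TAMs), by CD45+ CD11b+ F4/80+ staining, from tumors grown in female Rag1-/- hosts of C57BL/6 background, which have neither T nor B cells. The 6 libraries labelled DMBA3-4 TAM (DMBA3-4 libraries from here on) come from tumors of DMBA3-4, a single-cell clone of the PyMt mammary tumor line that had been exposed in culture to the carcinogen DMBA (7,12-dimethylbenz[a]anthracene). The 6 libraries labelled DMSO3-1 TAM (DMSO3-1 libraries) come from tumors of DMSO3-1, a clone of the same line exposed to the vehicle DMSO. The parental line was derived from an MMTV-PyMt tumor, a model in which the MMTV promoter drives the polyoma middle T oncogene in mammary epithelium, and it carries mCherry and luciferase. Each arm is 1 clone, so carcinogen exposure and clone cannot be told apart, and no age of the hosts is stated in the sources. Whether each library is a separate mouse is not in the labels, so every p-value rests on a spread between libraries that could be technical.

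Total counts were 2752005 to 4632817 per library. The macrophage label was not borne out by the count table. Ptprc, Itgam and Adgre1, which encode CD45, CD11b and F4/80, had at most 7, 3 and 3 counts in any library. A list of 20 macrophage genes, none of them at 0 in all libraries, summed to 0.00778% to 0.0126% of counts in DMBA3-4 libraries and 0.0062% to 0.00944% in DMSO3-1 libraries, against 5.5% of the authors' mean normalized counts. Krt8 and Krt18, keratins of simple epithelium, had 1211 to 4118 and 2267 to 5828 counts per library. Other epithelial genes were low or absent. Cdh1 (E-cadherin) had 0 to 3 counts in DMBA3-4 libraries against 12 to 24, and Cldn3, a tight junction protein, 0 to 55 against 70 to 105. Within the DMBA3-4 group all counts of these 2 genes lay in library 5. Krt19, Krt7, Krt14, Krt5, Cldn4, Cldn7 and Elf3 had at most 8 counts in any library. A list of 12 epithelial genes, in which Epcam was at 0 in every library, summed to 0.152% to 0.215% and 0.102% to 0.176%, and a list of 10 fibroblast genes to 0.114% to 0.199% and 0.176% to 0.239%. Fibroblast genes also went both ways. Fap had 26 to 119 counts against 0 to 11 and Lum 182 to 488 against 29 to 88, while Pdgfrb had 756 to 1479 against 1737 to 3359. Of 8 tested in the comparison below, 5 were not called (37.5% called, beside 60.1% of all tested genes). Lists of endothelial, NK, neutrophil, T and B, and erythroid genes had no gene above the filter on low counts. The column names of the count table match the descriptions of these samples in the labels, but the authors' list of changed genes carries sample names with another letter for the same groups. Whether the count table and the authors' table come from the same libraries could not be settled. The names DMBA3-4 and DMSO3-1 libraries therefore stand for labels only, and the part of cell composition in the results was not tested.

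Some libraries of a group were much closer to each other than the rest. In 4 pairs of libraries (DMBA3-4 1 with 4 and 2 with 3, DMSO3-1 1 with 6 and 2 with 4) counts differed by a chi-square per gene of 2.65 to 5.36, against 7.66 to 34.0 in all other pairs of the same group. DMSO3-1 libraries 1 and 6 stood apart from libraries 2 to 5, and results that rest on that split are given against 1 or both of these subsets. No label marks this split, which was taken from these same counts. Adjusted p-values and calls against either subset therefore describe how a result depends on the libraries and are not independent tests. No pair was within sampling noise, so all 12 libraries were kept. Calls that did not hold when these pairs were summed, which leaves 4 libraries against 4, are named beside each gene.

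Glycolysis splits glucose into pyruvate through a fixed order of cytosolic steps, and many steps can be run by isoenzymes encoded by different genes. When oxygen is scarce the prolyl hydroxylases that mark hypoxia-inducible factor (HIF) for destruction slow down, HIF accumulates, and it binds the core sequences ACGTG and GCGTG near glucose transporters, most glycolytic enzymes, lactate dehydrogenase and a set of genes for vessel growth, pH control and mitochondrial turnover. In tumors these genes are commonly used as a readout of low oxygen or of active HIF, both in cancer cells and in the macrophages among them.

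The core sequence is frequent at the starts of these genes. Promoters from RefSeq on GRCm38.p6, 250 bases before to 50 bases after the start, were given for 35 of the 37 genes (Slc2a3 and Ndrg1 had none). Only the first listed start of each gene was searched. ACGTG or GCGTG, searched on both strands so that CACGTG counts on each, was in 29 of the 35, or 82.9%, against 65.5% of the 8544 promoters of genes tested here and 43.8% of 27025 promoters of all genes. ACGTG alone was in 22 of 35, or 62.9%, against 26.7% and 19.7%. It was present in 6 of 7 genes that were higher in DMBA3-4 libraries, 10 of 17 that were lower and 4 of 8 not called. The stretches below are the upstream cores of 3 genes that were higher (Slc2a1, Slc16a1, Egln1), of Ldha, which holds the most cores of all members and was not called, and of 3 genes that were lower (Aldoc, Egln3, Ddit4). They are written 5′ to 3′ along the gene, with each ACGTG or GCGTG core in capitals, on either strand, so that a core on the other strand reads as its reverse complement (CACGT or CACGC). A match is a description of the letters and not a bound site.
Slc2a1, chr4:119108672-119108725, plus strand: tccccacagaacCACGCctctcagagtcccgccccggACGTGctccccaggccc
Slc16a1, chr3:104638452-104638546, plus strand: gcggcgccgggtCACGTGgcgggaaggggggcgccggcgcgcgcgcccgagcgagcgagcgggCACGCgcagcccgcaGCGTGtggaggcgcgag
Egln1, chr8:124949306-124949392, minus strand: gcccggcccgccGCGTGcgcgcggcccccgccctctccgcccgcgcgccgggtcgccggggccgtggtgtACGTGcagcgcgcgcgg
Ldha, chr7:46845647-46845786, plus strand: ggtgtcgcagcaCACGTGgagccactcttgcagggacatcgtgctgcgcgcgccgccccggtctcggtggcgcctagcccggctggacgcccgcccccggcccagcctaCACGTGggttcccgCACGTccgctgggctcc
Aldoc, chr11:78323011-78323039, plus strand: ccacctctgaggGCGTGgccttaccctag
Egln3, chr12:54204087-54204115, minus strand: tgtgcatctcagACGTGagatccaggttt
Ddit4, chr10:59951869-59951969, minus strand: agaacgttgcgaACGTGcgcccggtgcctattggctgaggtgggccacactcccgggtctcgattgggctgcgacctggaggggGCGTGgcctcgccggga
The ACGTG of Slc2a1 lay 36 bases before its start and that of Egln1 68 bases before, while those of Ddit4 and Egln3 lay 187 and 229 bases before. In Slc16a1, which was higher, the upstream ACGTG lay 199 bases before the start (200 on the other strand). Car9 and Hif1a, which were lower, had their nearest ACGTG 18 and 70 bases before. Distance from the start did not sort these genes by direction. Ldha had 5 upstream matches, with CACGTG read on both strands. Hk1, Gpi1, Aldoa, Tpi1, Pkm and Vegfa had neither core in this window. Hk1, Pkm and Vegfa have 2 listed starts and Aldoa has 3, and the windows of their later starts were not searched.

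The comparison asks which of these genes differ between the DMBA3-4 and the DMSO3-1 libraries. Levels are CPM, counts scaled to a common library total, after TMM scaling, and fold changes, their standard errors (SE) and Benjamini-Hochberg adjusted p-values come from edgeR's quasi-likelihood test across 11511 genes, with a call at adjusted p below 0.05 (n = 6 libraries per group). Glycolysis did not move as a block. Of 19 glycolytic genes tested, 4 were higher in DMBA3-4 libraries, 11 were lower and 4 were not called, against a background in which 60.1% of all tested genes were called, 29.9% higher and 30.2% lower. The 4 higher genes were Slc2a1, Hk2, Pfkm and Slc16a1. The median log2 fold change of the 19 genes was -0.56, beside 0.00 over all tested genes. Of the 14 other hypoxia-inducible genes tested, 3 were higher, 6 lower and 5 not called, with a median of -0.38. Changes of at least 2-fold were called in 4 glycolytic genes (1 higher, 3 lower) and 5 hypoxia genes (3 higher, 2 lower), where 24.6% of all tested genes were. The groups did not overlap for 1 higher and 6 lower glycolytic genes and for 1 higher and 3 lower hypoxia genes, where 32.2% of all tested genes did not. The counts moved with the libraries that entered. Against DMSO3-1 libraries 2 to 5 alone, 6 glycolytic genes were higher and 10 lower, and 4 hypoxia genes were higher and 4 lower. In that fit 7544 of 11904 tested genes were called, 50.4% of them higher. Against DMSO3-1 libraries 1 and 6 alone the counts were 2 and 12, and 1 and 6. There 4605 of 12483 tested genes were called, 50.2% of them higher. With close pairs summed they were 3 and 9, and 3 and 3, where 5773 of 12333 tested genes were called, 49.4% of them higher. The 6 and the 2 higher glycolytic genes include Pfkfb3, which passed the filter on low counts in those fits and is not among the 19. In sorted bulk samples, fewer cells of a type and less RNA per cell cannot be told apart. As a summed share of counts, the 22 glycolytic genes took 1.1% to 1.31% in DMBA3-4 libraries and 1.08% to 1.64% in DMSO3-1 libraries, and the 15 hypoxia genes took 0.116% to 0.178% and 0.134% to 0.196%, so these shares overlapped.

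**Figure D1:**
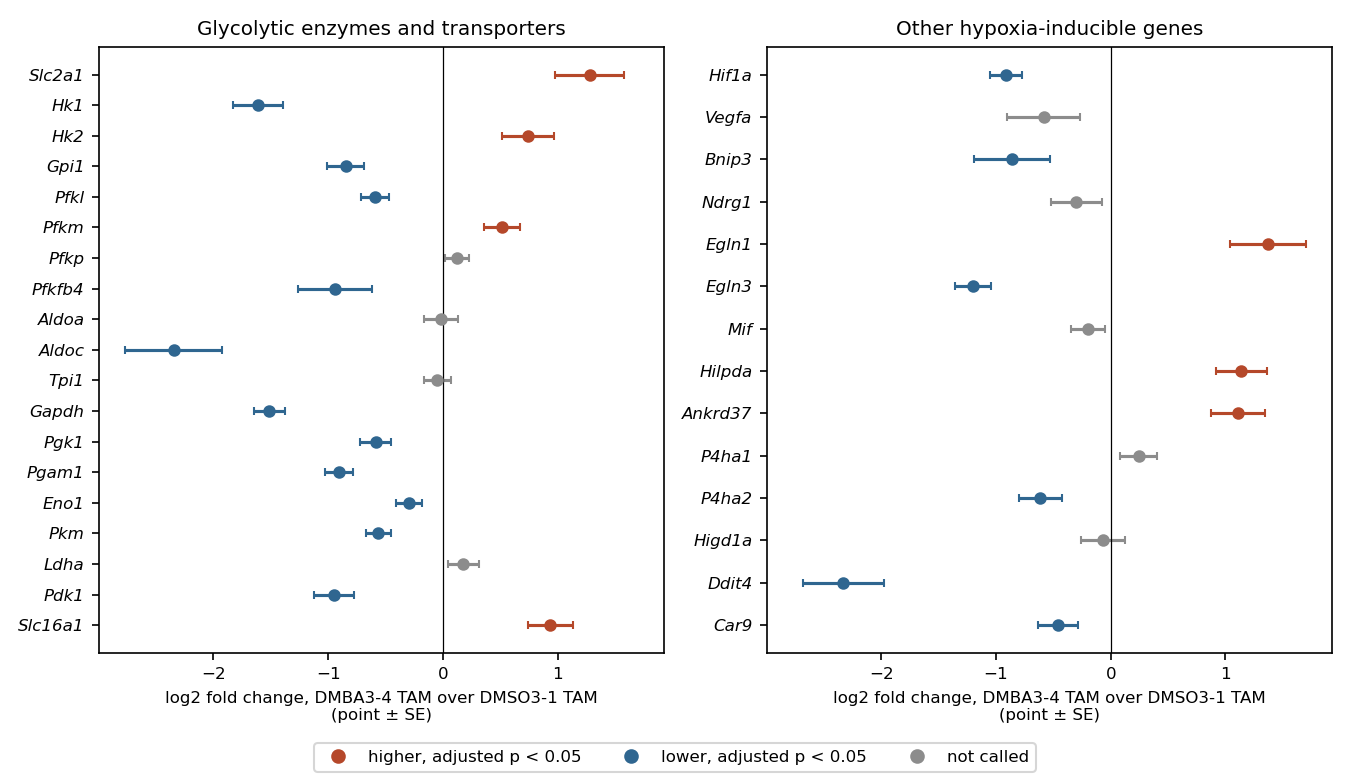
Log2 fold change (x axis, DMBA3-4 over DMSO3-1 libraries, point ± SE, n = 6 per group) of the 19 glycolytic and 14 other hypoxia-inducible genes tested by edgeR, colored by call. Points to the right of 0 are higher in DMBA3-4 libraries. Egln1 (1.37) and Slc2a1 (1.28) lie farthest to the right, and Aldoc (-2.35) and Ddit4 (-2.33) farthest to the left.

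Glucose enters through facilitative transporters. Slc2a1 (GLUT1, the basal glucose transporter of most cells) spanned 144 to 322 CPM (median 194) in DMBA3-4 libraries and 57.4 to 168 CPM (median 73.6) in DMSO3-1 libraries. The ranges overlapped only through library 1 of the second group, at 168 CPM, which stood above 1 library of the first. Slc2a1 was higher by 1.28 on the log2 scale (SE 0.30, adjusted p = 0.00232, 2.43-fold). Against the DMSO3-1 libraries 1 and 6 alone the difference was 0.56 (adjusted p = 0.229) and against libraries 2 to 5 it was 1.79. Slc2a3 (GLUT3, a high-affinity transporter) had 0 to 4 counts per library against 5 to 14, without overlap, and did not pass the filter on low counts. With no filter the log2 fold change of Slc2a3 was -2.26 (adjusted p = 0.00102), the opposite direction to Slc2a1.

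At the hexokinase step, which traps glucose in the cell, the isoenzymes moved apart. Hk1, the constitutive form, spanned 37.2 to 93 CPM (median 45.6) against 112 to 204 CPM (median 177), with no overlap, and fell by 1.61 on the log2 scale (SE 0.22, adjusted p = 1.92e-05). Hk2, the inducible form, spanned 73.2 to 175 CPM (median 102) against 49.9 to 88.9 CPM (median 71.5). It was highest in DMBA3-4 libraries 4 and 1, the ranges overlapped, and Hk2 was higher by 0.75 (SE 0.23, adjusted p = 0.0102), a call that was lost when the close pairs were summed (0.60, adjusted p = 0.0738) and against DMSO3-1 libraries 1 and 6 alone (0.60, adjusted p = 0.222). Per kilobase of exon, with all annotated exons of a gene merged, Hk2 made up 52.9% to 87% of the hexokinase RNA of these 2 genes in DMBA3-4 libraries (median 74%). In the others it made up 26.7% to 48.3% (median 39.4%). By this measure Hk2 was the larger part in every library of the first group and the smaller part in every library of the second. In DMBA3-4 library 6 this rested on the exon lengths (8532 bases for Hk1, 5969 for Hk2). There Hk1, at 93 CPM, stood above Hk2, at 73.2 CPM.

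Gpi1, phosphoglucose isomerase, fell by 0.85 (SE 0.16, adjusted p = 0.000343), from 1419 ± 290 to 789 ± 182 CPM (mean ± SD). At the phosphofructokinase step, the committed step of the pathway, Pfkl (the liver-type subunit) fell by 0.59 (SE 0.12, adjusted p = 0.000491), Pfkm (the muscle-type subunit) was higher by 0.52 (SE 0.16, adjusted p = 0.00937), and Pfkp (the platelet-type subunit) was not called at 0.12 (adjusted p = 0.324). Pfkm lost its call against DMSO3-1 libraries 1 and 6 alone (0.24, adjusted p = 0.355). Exons of Pfkm overlap those of Gm26513 by 341 bases on the same strand, as do exons of Pkm (Gm49759, 767 bases) and Hif1a (Gm49321, 148 bases), and Pfkp overlaps Pitrm1 by 748 bases on the opposite strand, so their reads could be split. Per kilobase, Pfkl supplied 35.9% to 42.8% of the RNA of the 3 subunits against 45.9% to 59.7%, and Pfkm 13.4% to 21.2% against 7.51% to 11.9%, with no overlap in either, while Pfkp overlapped (36.6% to 48.3% against 31.5% to 43.6%).

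The bifunctional enzymes that set fructose 2,6-bisphosphate, the main activator of phosphofructokinase, were low. Pfkfb4 fell by 0.94 (SE 0.32, adjusted p = 0.0198), with 1.72 to 11.6 CPM against 9.67 to 16.1, and was not called when close pairs were summed (adjusted p = 0.107) or against DMSO3-1 libraries 1 and 6 alone (adjusted p = 0.142). Pfkfb3, the form with the strongest kinase activity, had 6 to 26 counts against 1 to 12 and did not pass the filter on low counts. With no filter its log2 fold change was 1.82 (adjusted p = 0.000273, not comparable with the main fit). In those fits with libraries left out where Pfkfb3 passed the filter, it was higher by 1.52 to 2.45 (adjusted p = 0.00442 to 0.0359).

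At the aldolase step, Aldoa, the main form outside liver and brain, spanned 1676 to 2406 CPM (median 1883) against 1484 to 2586 CPM (median 1912) and was not called at -0.01 (SE 0.15, adjusted p = 0.94), with -0.42 (adjusted p = 0.0239) against DMSO3-1 libraries 1 and 6 alone. Aldoc, the brain-type form and a known hypoxia target, spanned 3.8 to 30.5 CPM (median 8.21) against 37.7 to 81 CPM (median 57.5) without overlap. Aldoc fell by 2.35 (SE 0.43, adjusted p = 0.000344, 5.08-fold), the widest change among the glycolytic genes tested. Without DMBA3-4 library 5, at 30.5 CPM the highest of its group, Aldoc fell by 2.94. Library 5 also held all Cdh1 and Cldn3 counts of its group, and a link between these was not tested. Per kilobase it supplied 0.191% to 1.34% of aldolase RNA against 2.22% to 2.75%, so Aldoa carried nearly all of it in both groups.

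**Figure D2:**
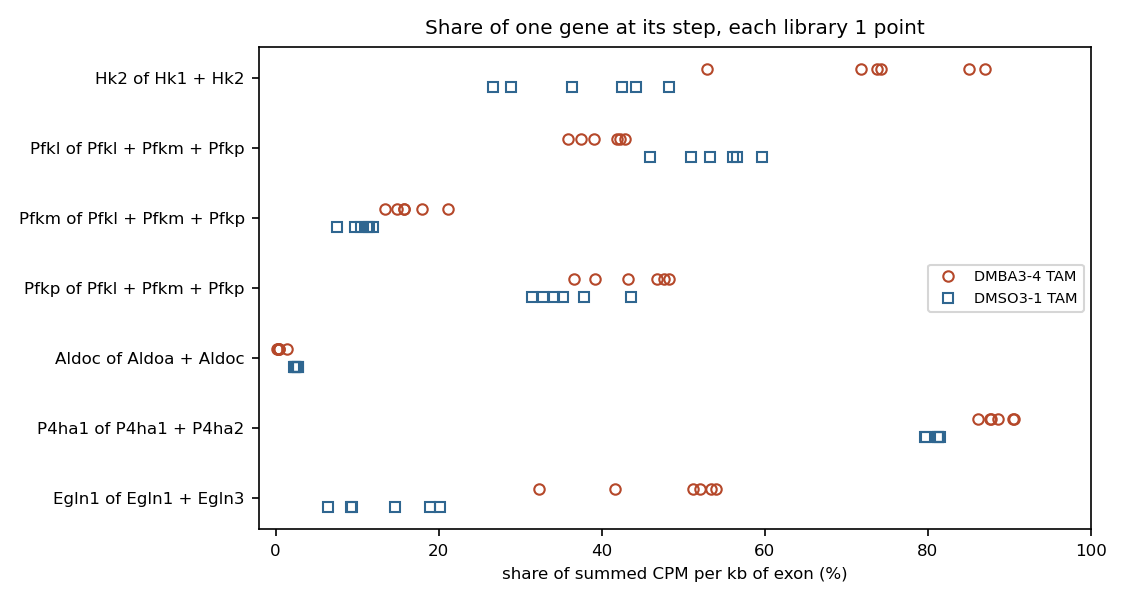
Share of 1 gene in the summed CPM per kilobase of exon of the genes that run the same step (x axis, percent), with each library as 1 point (open circles, DMBA3-4 TAM; open squares, DMSO3-1 TAM; 6 each). Groups do not overlap for Hk2, Pfkl, Pfkm, Aldoc, P4ha1 and Egln1, and they overlap for Pfkp. The shares were not tested.

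The later steps of the pathway, where ATP is made, were lower or level. Tpi1, triose phosphate isomerase, was not called (-0.05, SE 0.12, adjusted p = 0.746), though against DMSO3-1 libraries 1 and 6 alone it was called lower (-0.33, adjusted p = 0.0458). Gapdh, glyceraldehyde phosphate dehydrogenase, spanned 72.1 to 124 CPM (median 89.1) against 222 to 337 CPM (median 265), and fell by 1.51 (SE 0.14, adjusted p = 2.59e-07). Its value is uncertain because 78 near-identical copies in the annotation (at least 95% identity over at least 200 bases) held 55.1% of the counts summed over Gapdh and its copies. Gapdh and its copies together came to 243 ± 39.9 CPM against 548 ± 63.7 CPM, 2.25 times as high in DMSO3-1 libraries. Pgk1, phosphoglycerate kinase, fell by 0.58 (SE 0.14, adjusted p = 0.00154), and Pgam1, phosphoglycerate mutase, by 0.91 (SE 0.12, adjusted p = 1.75e-05) without overlap. Eno1, enolase, fell by 0.30 (SE 0.11, adjusted p = 0.031), a call that was lost without any of DMBA3-4 libraries 2, 3, 4 or 6 or DMSO3-1 libraries 1, 3 or 6 (adjusted p = 0.0533 to 0.0759) when close pairs were summed (adjusted p = 0.132) and against DMSO3-1 libraries 2 to 5 alone (adjusted p = 0.187). Pkm, pyruvate kinase, fell by 0.56 (SE 0.11, adjusted p = 0.000328), from 2349 to 3157 CPM in DMSO3-1 libraries to 1609 to 2101 CPM in DMBA3-4 libraries.

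Ldha, which turns pyruvate into lactate, was the most abundant member per kilobase in both groups, at 942 and 832 CPM per kilobase, ahead of Aldoa at 669 and 676. It spanned 2489 to 3749 CPM against 2193 to 3443 and was not called at 0.18 (SE 0.14, adjusted p = 0.274). Against DMSO3-1 libraries 2 to 5 alone it was called higher (0.37, adjusted p = 0.0169), and against libraries 1 and 6 alone it lay at -0.18 (adjusted p = 0.342). Pdk1, a kinase that holds pyruvate back from the mitochondria, fell by 0.95 (SE 0.17, adjusted p = 0.000239) without overlap, from 92.2 ± 19.3 to 47.9 ± 11.9 CPM. Slc16a1 (MCT1, a carrier of lactate and pyruvate) spanned only 211 to 245 CPM in DMBA3-4 libraries (median 222) and 64.8 to 177 CPM (median 109) in the others, with no overlap. Slc16a1 was higher by 0.94 (SE 0.20, adjusted p = 0.000799), and by 0.35 against DMSO3-1 libraries 1 and 6 alone, where it kept its call. Slc16a3 (MCT4, the lactate exporter of glycolytic cells and of activated macrophages) had 0 to 3 counts against 1 to 7 and was not tested. In the authors' table the order was the other way round, with the authors' mean at 825 normalized counts for Slc16a3 and 52.1 for Slc16a1, or 92.9% Slc16a3 per kilobase. The tables were normalized separately and may not hold the same libraries, so no test was made between them.

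**Figure D3:**
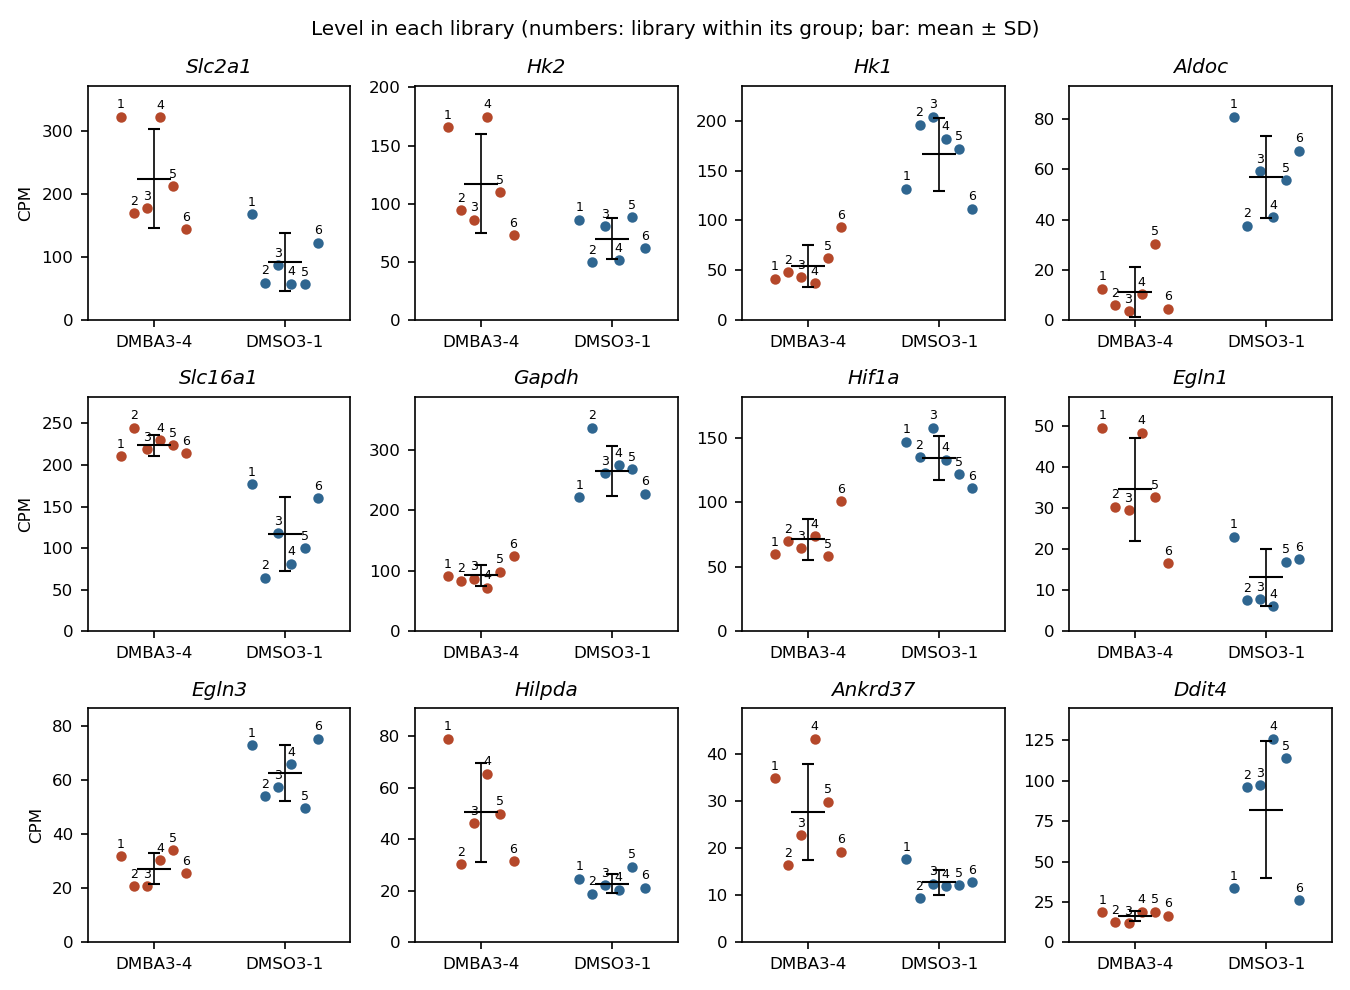
Level in CPM (y axis, from 0) of 12 members in each library, with the library's number within its group and the mean ± SD of 6 libraries as a bar. Slc2a1, Hk2, Slc16a1, Egln1, Hilpda and Ankrd37 are higher on the left (DMBA3-4), and Hk1, Aldoc, Gapdh, Hif1a, Egln3 and Ddit4 lower. DMSO3-1 libraries 1 and 6 lie outside the range of libraries 2 to 5 for all of these genes except Hk2, Hif1a and Hilpda.

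The oxygen sensing genes also moved apart. Hif1a, the oxygen-regulated subunit of HIF, spanned 58.5 to 101 CPM (median 67.2) against 111 to 158 CPM (median 134) without overlap and fell by 0.91 (SE 0.14, adjusted p = 4.76e-05). Its protein is controlled mainly by its destruction, which RNA does not measure. Egln1 (PHD2, the main prolyl hydroxylase that marks HIF) spanned 16.6 to 49.5 CPM (median 31.5) against 6.16 to 23 CPM (median 12.4). Only DMBA3-4 library 6, at 16.6 CPM, lay within the range of the other group. Egln1 was higher by 1.37 (SE 0.33, adjusted p = 0.00244), and by 0.69 with no call (adjusted p = 0.139) against DMSO3-1 libraries 1 and 6 alone. Egln3 (PHD3, a hydroxylase that HIF itself induces) spanned 20.7 to 34 CPM (median 28.1) against 49.6 to 75.4 CPM (median 61.8) without overlap and fell by 1.20 (SE 0.16, adjusted p = 1.43e-05). Per kilobase Egln1 made up 32.3% to 54% of the RNA of the pair (median 51.6%) against 6.47% to 20.2% (median 12.1%).

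Among secreted factors, Vegfa, the main inducer of vessel growth, spanned 3.96 to 12.7 CPM (median 10.7) against 7.57 to 21.8 CPM (median 14.6). The ranges overlapped and Vegfa was not called at -0.58 (SE 0.32, adjusted p = 0.124). It was called against DMSO3-1 libraries 2 to 5 alone (-0.86, adjusted p = 0.0182) and turned to 0.21 (adjusted p = 0.71) against libraries 1 and 6 alone. Mif, a cytokine that restrains macrophage migration, was not called (-0.20, adjusted p = 0.266) except against DMSO3-1 libraries 1 and 6 alone (-0.54, adjusted p = 0.0172), and Adm, the vasodilator adrenomedullin, had 0 to 6 counts against 0 to 2 and was not tested.

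Ddit4 (REDD1, a brake on the growth kinase complex mTORC1) spanned 12 to 19.1 CPM (median 17.6) against 26 to 126 CPM (median 96.5) without overlap. Ddit4 fell by 2.33 (SE 0.36, adjusted p = 7.99e-05, 5.03-fold). Within the DMSO3-1 group it was at 33.6 and 26 CPM in libraries 1 and 6 and at 95.8 to 126 CPM in libraries 2 to 5, and against libraries 1 and 6 alone it was lower by 0.93 on the log2 scale, still called. Hilpda, which coats lipid droplets and blocks their breakdown, spanned 30.3 to 79 CPM (median 48) against 18.9 to 29.3 CPM (median 21.7) without overlap and was higher by 1.14 (SE 0.22, adjusted p = 0.000421). Ankrd37, an ankyrin repeat protein induced by HIF, spanned 16.4 to 43.3 CPM (median 26.4) against 9.43 to 17.7 CPM (median 12.3), with library 1 of the second group above 1 library of the first. Ankrd37 was higher by 1.11 (SE 0.24, adjusted p = 0.000833), and was not called against DMSO3-1 libraries 1 and 6 alone (0.78, adjusted p = 0.0872).

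Of the genes that act on mitochondria, Bnip3, a receptor that targets them for digestion, fell by 0.86 (SE 0.33, adjusted p = 0.0364), and Higd1a, a small inner membrane protein, was not called (-0.07, adjusted p = 0.766). Bnip3 spanned 25.2 to 89.9 CPM against 62.3 to 128, and its call was lost without any of DMBA3-4 libraries 2, 3, 5 or 6 or DMSO3-1 libraries 1, 3 or 6 (adjusted p = 0.0528 to 0.0793). Car9, a carbonic anhydrase that acidifies the outside of hypoxic cells, fell by 0.46 (SE 0.17, adjusted p = 0.0326), from 198 ± 47.3 to 144 ± 36.2 CPM. Its call was lost without any of DMBA3-4 libraries 2, 3 or 6 or DMSO3-1 libraries 1 or 3 (adjusted p = 0.0684 to 0.0827). For the collagen prolyl hydroxylases, P4ha2 fell by 0.61 (SE 0.19, adjusted p = 0.0112) and P4ha1 was not called (0.25, SE 0.16, adjusted p = 0.203), though it was called higher against DMSO3-1 libraries 2 to 5 alone (0.40, adjusted p = 0.0482). None of the calls of Bnip3, Car9 and P4ha2 held when close pairs were summed (adjusted p = 0.0671, 0.0832 and 0.0597) or against DMSO3-1 libraries 2 to 5 alone (adjusted p = 0.206, 0.153 and 0.0525). Against libraries 1 and 6 alone Bnip3 was again not called (adjusted p = 0.0826), while Car9 and P4ha2 kept their calls (adjusted p = 0.0103 and 0.0163). Ndrg1, a stress-responsive protein, was not called (-0.30, adjusted p = 0.258).

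Members varied within groups as well as between them. In the DMSO3-1 group, libraries 1 and 6 lay outside the range of libraries 2 to 5 for 12 of 19 tested glycolytic genes (10 higher, 2 lower) and 8 of 14 tested hypoxia genes (6 higher, 2 lower), beside 35.8% of all tested genes. Aldoa, Tpi1, Pgk1, Pgam1, Eno1, Ldha, Slc2a1, Slc16a1, Pfkm and Aldoc were the 10 glycolytic genes highest in those libraries. Hk1, Gapdh, Aldoc and Egln3 also stood apart and were called lower against either subset. Their log2 fold changes were -1.77, -1.60, -2.09 and -1.04 against libraries 2 to 5 alone, and -1.22, -1.33, -2.79 and -1.50 against libraries 1 and 6 alone. Epithelial genes summed to 0.176% and 0.168% of counts in libraries 1 and 6 and to 0.102% to 0.128% in libraries 2 to 5. Most of this sum was Krt8 and Krt18, with DMSO3-1 means of 502 and 857 CPM. Macrophage genes summed to 0.00679% and 0.00749% against 0.0062% to 0.00944%, with Mertk and Cd14 the largest, at DMSO3-1 means of 36.7 and 17.6 CPM. The 15 proliferation genes summed to 0.0986% and 0.111% against 0.0903% to 0.108%. The part of these sums in the split was not tested. In the DMBA3-4 group, libraries 1 and 4 were the 2 highest for 10 of 14 hypoxia genes (Bnip3, Ndrg1, Egln1, Mif, Hilpda, Ankrd37, P4ha1, P4ha2, Higd1a and Car9) and 6 of 19 glycolytic genes (Slc2a1, Hk2, Gpi1, Aldoa, Pgk1 and Ldha), beside 13.1% of all tested genes. Bnip3, for example, was at 85.4 and 89.9 CPM in libraries 1 and 4 and at 25.2 to 47.5 CPM in the other 4. Libraries 1 and 4 also had the highest macrophage sums (0.0126% and 0.0114%) and the lowest sums of 15 proliferation genes (0.103% and 0.111%). Their epithelial sums were the lowest of the group (0.156% and 0.152%, against 0.162% to 0.215%), whereas those of DMSO3-1 libraries 1 and 6 were the highest of theirs. The part of these sums was not tested. The pair of DMBA3-4 libraries 1 and 4 was picked after the values were seen and carries no test. The split of the DMSO3-1 group was also taken from the values.

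**Figure D4:**
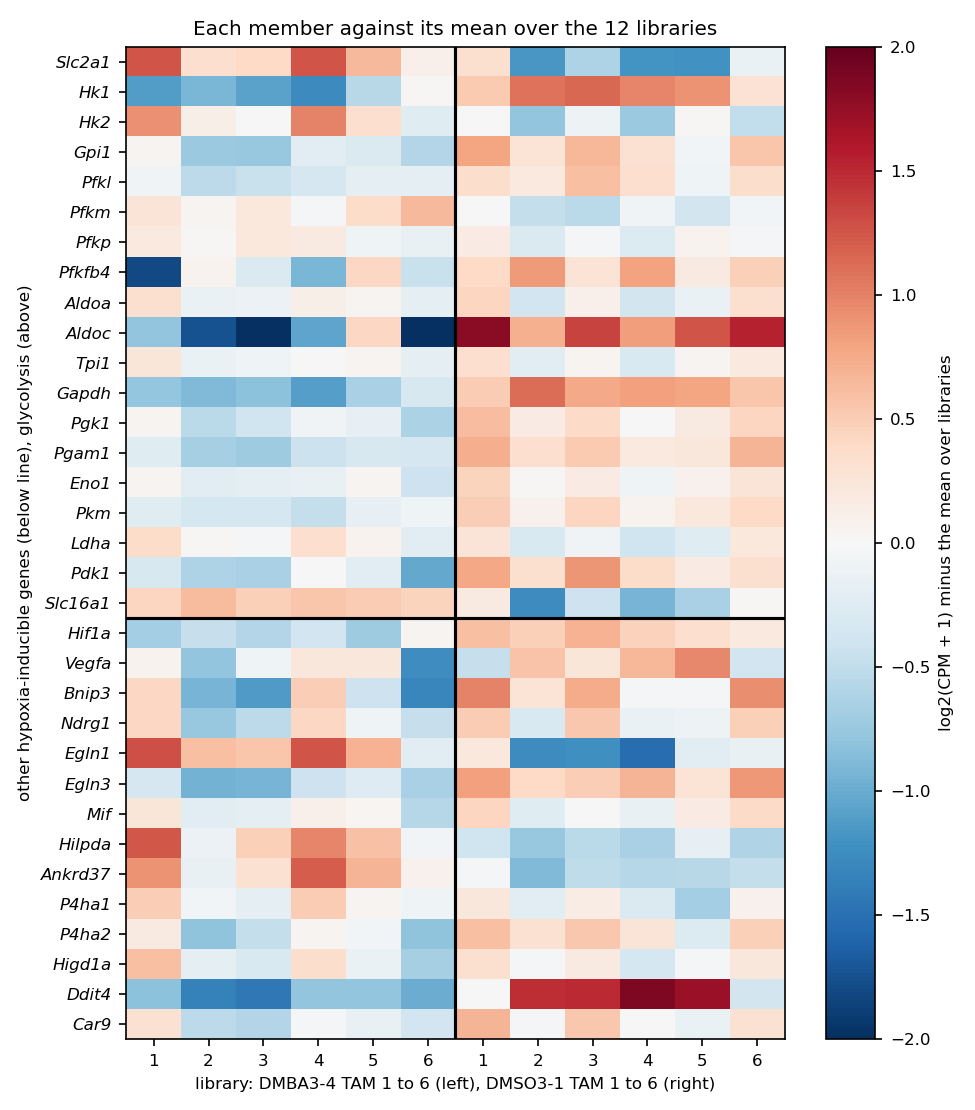
Log2(CPM + 1) of each tested member minus its mean over the 12 libraries (color, limited to 2 either way), with genes in rows and libraries 1 to 6 of each group in columns. Within the DMBA3-4 group, libraries 1 and 4 are redder for most hypoxia genes, such as Bnip3 (85.4 and 89.9 CPM against 25.2 to 47.5 CPM). Within the DMSO3-1 group, libraries 1 and 6 differ from 2 to 5 for Slc2a1, Slc16a1 and Ddit4, among other genes.

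Other genes of the same pathways were taken from lists and not from their movement. Of 6 tested further glycolytic genes, 2 were lower and 4 were not called. Eno3, the muscle enolase, fell by 2.05 (SE 0.28, adjusted p = 3.38e-05), from 202 ± 36.3 to 48.5 ± 28.7 CPM. Ldhb, the lactate dehydrogenase subunit that favors pyruvate, fell by 1.23 (SE 0.28, adjusted p = 0.00152). Of 11 genes for entry of pyruvate into mitochondria, 5 were higher and 3 lower. Mpc1 and Mpc2, the subunits of the mitochondrial pyruvate carrier, were higher by 1.46 (SE 0.19, adjusted p = 9.73e-06) and 0.88 (SE 0.17, adjusted p = 0.000371). The members Pdk1 (a brake on the pyruvate dehydrogenase complex) and, from this list, Dlat (a subunit of that complex) and Pdp2 (a phosphatase that activates it) fell by 0.95, 1.01 and 1.59. Other subunits of the complex went both ways. Pdhb, Pdhx and Dld were higher by 0.76 (adjusted p = 3.98e-05), 0.58 (adjusted p = 0.0163) and 0.35 (adjusted p = 0.0463), and Pdha1 was lower by 0.28 (adjusted p = 0.0297). Of 7 pentose phosphate genes, 2 were higher, led by Taldo1 (transaldolase) at 0.73, and 1 was lower (Tkt, transketolase, at -0.41). Of 9 genes of gluconeogenesis and glycogen, 2 were higher, led by Pcx (pyruvate carboxylase) at 1.23, and 3 were lower, among them Pck2 (mitochondrial phosphoenolpyruvate carboxykinase) at -0.85 and Gys1 (glycogen synthase) at -0.78. The share of tested genes called was 33.3% for further glycolytic genes, 72.7% for pyruvate entry, 42.9% for the pentose phosphate route and 55.6% for gluconeogenesis and glycogen, beside 60.1% of all tested genes.

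Of 8 further genes of HIF control, 3 were higher and 3 lower, so that 75% were called, beside 60.1% of all tested genes. Rbx1 (1.06, SE 0.14, adjusted p = 1.32e-05), Elob (0.59) and Eloc (0.54), which were higher, encode parts of the ubiquitin ligase that removes HIF. Vhl (0.25, adjusted p = 0.0875) and Cul2 (0.04, adjusted p = 0.796), which encode other parts of it, were not called. Hif1an (-1.05, SE 0.21, adjusted p = 0.00045) and Egln2 (-0.71), which were lower, encode HIF hydroxylases. Of 31 other hypoxia targets tested, 2 were higher and 16 lower (58.1% called, beside 60.1% of all tested genes, of which 29.9% were higher and 30.2% lower), with a median of -0.26. Apln, a vessel growth peptide, was 8.01-fold lower (adjusted p = 4.82e-07), at 3.58 ± 1.3 CPM against 28.7 ± 11.7. Nrn1 (neuritin) fell by 2.66 and Zfp395, a zinc finger protein, fell by 2.33. Stc1, the secreted stanniocalcin, went the other way, with 147 to 346 counts per library in the DMBA3-4 group and 0 or 1 count in each DMSO3-1 library, where no fold is given because the level is under the floor of 3 counts.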

How the data were processed

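RNA was measured in 12 libraries, 6 per group. The authors deposited whole-number counts per gene, not normalized, and a comparison table whose mean normalized count (a signal averaged over samples, given here as the authors' mean) was the only column used. Its log2 fold changes, scores and p-values hold the authors' own findings and were not used. Per the labels RNA was column-purified for a SMARTER kit, while the methods of the study name SmartSeq2. The submitters' processing notes name GRCm38 (mm10), and the aligner, counter and strand setting are not given in the sources used here. In all, 19 rows named by a number (0.0893% to 0.128% of counts) were left out. Genes were filtered with filterByExpr, scaled by TMM and tested with edgeR 4.0.16 (robust quasi-likelihood, R 4.3.3), with SE as the absolute log2 fold change over the square root of F. The biological coefficient of variation was 23.3%. DESeq2 1.42.0, limma 3.58.1, other scalings, filters, thresholds, a replicate block and left-out libraries were alternatives. Summed close pairs were added after seeing the data. The code was tested on simulated data. Exon lengths, with all annotated exons of a gene merged, and copies (blastn) come from GENCODE M21. All 37 members are named, with values by library for those changed at least 2-fold, their partners at the same step, Slc2a1, Hif1a and Vegfa, and up to 4 called genes with the largest changes from each other list. Further subunits of the pyruvate dehydrogenase complex and of the ligase that removes HIF are named beside these. Members and lists were chosen with earlier results of these data known.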

Additional observations from a re-analysis of the deposited data

Results flagged for a closer look

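Of 74 sets of 6 libraries examined (37 genes in 2 groups), 3 held a library far from the others of its group by Dixon's criterion for 6 values, and chance alone gives about 1 in 20. Aldoc was at 30.5 CPM in DMBA3-4 TAM library 5, with 3.8 to 12.6 CPM in the other libraries labelled DMBA3-4 TAM, and without library 5 its log2 fold change was -2.94. Hif1a was at 101 CPM in DMBA3-4 TAM library 6, with 58.5 to 73.8 CPM in the others. Adm was at 0.609 CPM (2 counts) in DMSO3-1 TAM library 2 and at 0 in the others of its group.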

How the results depend on the processing

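Of 33 members tested, 15 kept their direction and their side of the threshold in all 25 alternatives, and 7 changed sign in at least 1. Without DMSO3-1 libraries 2 to 5, 4605 genes, 2 higher glycolytic and 1 higher hypoxia gene were called, and Pfkp (-0.059), Ldha (-0.178), Vegfa (0.207) and P4ha1 (-0.0571) turned. At adjusted p below 0.01, and with close pairs summed, 3 hypoxia genes were lower. Without DMSO3-1 libraries 1 and 6, Aldoa (0.212), Tpi1 (0.101) and Higd1a (0.0615) turned. Aldoa, at -0.01, also turned with limma-voom (0.0082), its quality weights (0.0718), upper-quartile factors (0.0511), library size only (0.0312) and no filter (0.0292), and Tpi1 with quality weights (0.0248), upper-quartile factors (0.0228) and library size only (0.0013). Leaving out 1 library gave 6490 to 7139 genes, 14 to 16 glycolytic genes (4 to 5 higher, 10 to 11 lower) and 7 to 9 hypoxia genes (3 higher, 4 to 6 lower), with Aldoa from -0.0881 to 0.0783, Tpi1 from -0.113 to 0.019 and Higd1a from -0.224 to 0.0415. Calls were lost for Eno1 (adjusted p = 0.134), Bnip3 (0.059) and Car9 (0.0747) with upper-quartile factors, for Eno1 with library size only (0.0647), and for Eno1 (0.0923) and Bnip3 (0.164) with no filter. The fifth higher gene was Pfkfb3, which passed the filter there. The cause of these shifts was not tested. Same-numbered libraries were not paired by any label, their deviations correlated at -0.158 to 0.129, and no library correlated best with its own number. Under a replicate block 6481 genes, 15 glycolytic and 9 hypoxia genes were called, and Aldoa turned to 0.0085. Low counts limit Slc2a3, Slc16a3, Adm and Pfkfb3.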
